A study of Mus musculus with 12 samples.

Results

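Interferon-stimulated genes were examined in sorted prostate epithelium of castrated and intact mice. The set was a list of 39 mouse genes given by name and drawn up with earlier results of these data known, of which 37 had a probe set that the array annotation assigned to a single gene symbol, out of 18193 such genes. Isg15, whose probe set is shared with a second symbol, and Ifi44 were not analysed here. Each gene is represented by its brightest probe set on average. Of the 37, 36 passed the filter on dim probe sets, as did 14645 genes in all, while Mx2 did not. The filter asked that a probe set lie in the upper part of its array, past the 40th percentile, on 3 or more arrays, so a gene high in a single group could pass through that group alone, and counts over the 36 are descriptions.

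The samples were 12 arrays in 4 groups of 3 biological replicates, all from C57BL/6 males with no transgene named in the labels. Castrated luminal cells and castrated basal cells came from mice whose testes were removed at 8 weeks of age and whose prostates were taken 4 weeks later. Intact luminal cells and intact basal cells came from paired animals that kept their testes, taken at the same time. Luminal cells were sorted as lineage-negative, low for the integrin CD49f and positive for EpCAM, and basal cells as lineage-negative, high for CD49f and positive for EpCAM. The number of animals behind each replicate was not given in the labels. RNA was amplified before hybridization, and the values are MAS5 signal on a linear scale, in arbitrary units scaled by the authors to the same trimmed mean on every array. Signals of different probe sets are not comparable with each other, so every comparison below stays within a gene. The number of arrays limits the precision.

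Type I interferons bind the receptor formed by Ifnar1 and Ifnar2, type III interferons bind Ifnlr1 with Il10rb, and both activate the kinases Jak1 and Tyk2. Signalling from these brings Stat2 and Irf9 into a complex that binds interferon-stimulated response elements upstream of the target genes. The products include sensors of viral RNA, enzymes that degrade or block it, membrane proteins that hold viruses back, and a brake formed by Usp18, and epithelial cells commonly transcribe many of them at a low level without infection.

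The markers set the gates apart. The basal keratin Krt5 read 5.89 to 62.7 in castrated luminal and 20.0 to 489 in intact luminal cells, against 23582 to 31827 in castrated basal and 15237 to 25733 in intact basal cells. In both states 6 of 6 basal markers were lower in luminal cells, among them Itga6, the gene of the sorting marker CD49f itself. The luminal keratin Krt8 was present in all groups, at 24004 to 28991 in castrated luminal, 21538 to 27155 in intact luminal, 15305 to 19293 in castrated basal and 10950.0 to 16437 in intact basal cells, and each luminal array lay above each basal array. Of 5 tested luminal markers 4 were higher in luminal cells in each state. Replicates of a group correlated at 0.866 to 0.962 over genes on the log2 scale. In bulk RNA of a sorted gate, fewer cells of a type and less RNA per cell cannot be told apart. Differences are log2 fold changes of signal plus 16 with their standard error (SE), from a limma fit of all 4 groups with p-values adjusted by the Benjamini-Hochberg method over all 14645 genes. A gene is said to pass when its adjusted p is under 0.05, and adding 16 understates the change of dim genes.

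More than any other group, castrated luminal cells held the highest level of the interferon-stimulated genes tested. By group mean, 20 of the 36 members (55.6%) were highest there, where 24.8% of all genes were. Intact luminal cells held the highest mean of 8 members, castrated basal cells of 3 and intact basal cells of 5. The median member was at 8.84 to 9.05 on the log2 scale on the 3 castrated luminal arrays, at 7.79 to 8.69 on the intact luminal arrays, at 6.90 to 7.76 on the castrated basal arrays and at 7.35 to 8.34 on the intact basal arrays. The castrated luminal arrays thus lay above all others in this median. The median of all genes spanned a narrower range, 8.18 to 8.26, 8.14 to 8.31, 7.57 to 7.89 and 7.91 to 8.07 in the same order of groups. Replicates of the members lay closest together in castrated luminal cells, with a median SD of 0.30 on the log2 scale, against 0.74 in intact luminal, 0.89 in castrated basal and 0.65 in intact basal cells. Over all genes those SDs were 0.32, 0.58, 0.61 and 0.61. By array, 34 of 36 members were above the 40th percentile on all 3 castrated luminal arrays, against 26 on all 3 intact luminal, 22 on all 3 castrated basal and 23 on all 3 intact basal arrays. The same percentile rule chose the 36, so a member could enter through castrated luminal cells alone. The share of all genes was not computed for this count, and no conclusion is drawn from it.

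**Figure D1:**
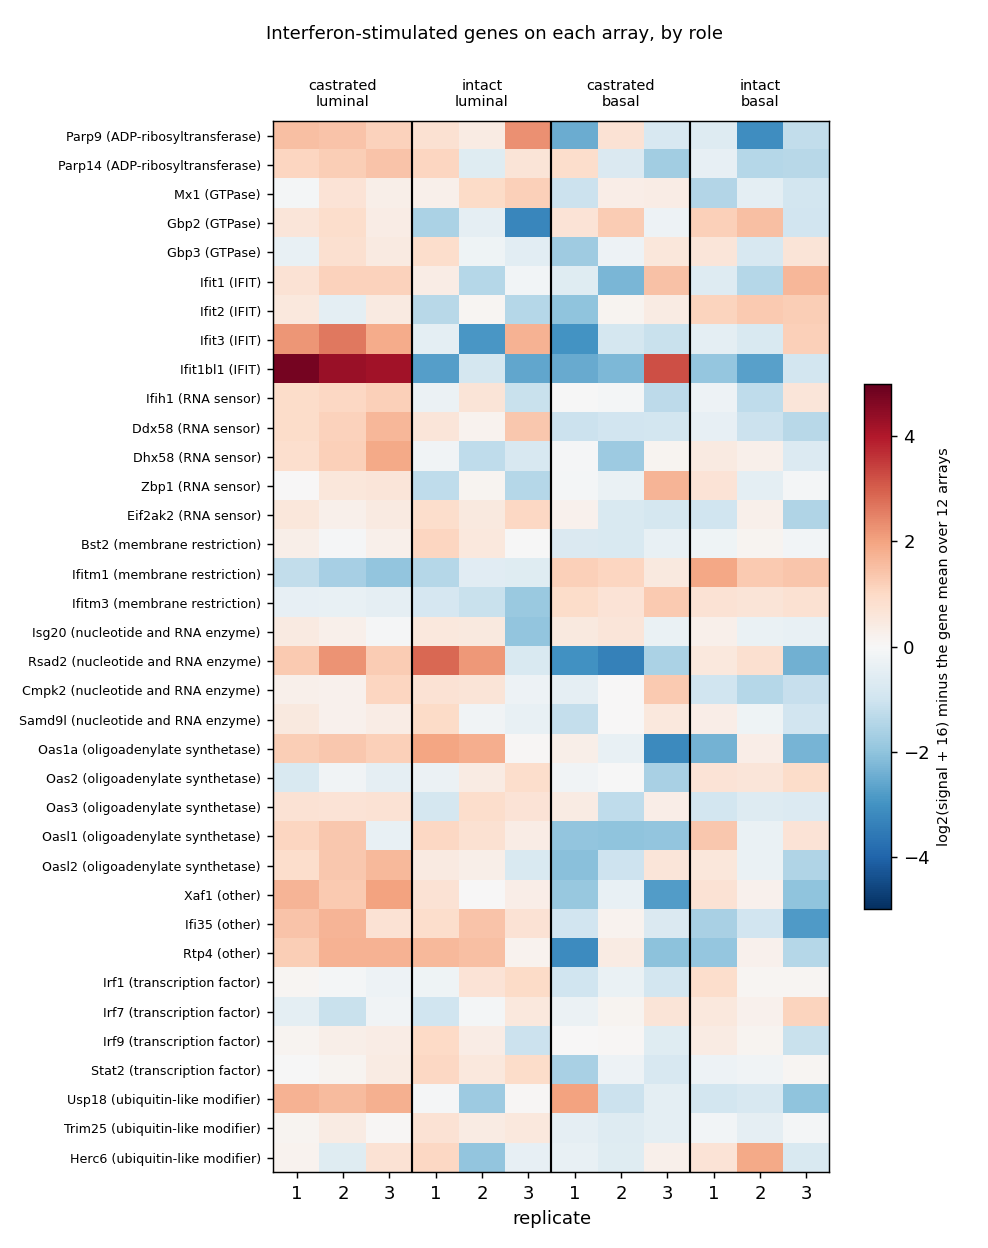
Each cell is log2(signal + 16) of 1 member (row, with its role) on 1 array (column, replicates 1 to 3 of castrated luminal, intact luminal, castrated basal and intact basal cells) minus the gene's mean over 12 arrays, red above and blue below. The castrated luminal columns are red for most of the 36 rows, and 20 members have their highest group mean there.

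Castration was followed by a rise of Ifit1bl1 and Ifitm3 in luminal cells. These were the 2 of 36 members that passed (5.56%), both higher, where 5.86% of all genes passed, 2.90% as higher and 2.96% as lower, and no member passed as lower. At an unadjusted p under 0.05 there were 7 members, all higher (19.4%, against 19.3% of all genes in either direction). Of the 36 log2 fold changes 25 (69.4%) were above 0, against 45.6% over all genes. Their median was 0.37, against -0.09 over all genes. Without the third intact luminal array 19 were above 0 and the median was 0.07. Every castrated luminal array exceeded every intact luminal array for 11 members (30.6%), where 14.9% of all genes did so. Every castrated luminal array was lower for Stat2 and Trim25, which is 5.56% of the members, against 16.8% of all genes. Without the third intact luminal array, 13 members were higher on every castrated luminal array, where 20% of all genes were, and 6 were lower, where 24.9% of all genes were.

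The IFIT family, proteins that bind viral RNA and hinder its translation, held the 2 largest differences between castrated and intact luminal cells among the members. Ifit1bl1, a mouse relative of Ifit1 in the same gene cluster, read 3869.6, 2777 and 2572 in castrated luminal cells, against 4.50, 60.3 and 7.09 in intact luminal cells. In basal cells it read 8.21, 13.5 and 1273 after castration and 20.4, 5.36 and 58.2 in intact mice. All 3 castrated luminal arrays stood above the other 9, of which the third castrated basal array was the highest. The log2 fold change in luminal cells was 6.52 ± 1.11 (SE; adjusted p = 0.00174, limma), the highest among the members. It ranged from 5.19, with 64 added to the signal in place of 16, to 7.76, with 1 added, and passed under all 25 alternative settings.

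Ifit3, which lies in the same gene cluster, read 2323, 3177 and 1845 in castrated luminal cells, against 342, 52.3 and 1678 in intact luminal cells. Its basal signal was 47.4, 258 and 219 after castration, against 349.5, 288 and 1132 in intact mice. The castrated luminal arrays were the 3 highest of the 12, and the castrated basal arrays lay below all intact basal ones. The castration log2 fold change was 2.80 ± 0.87 in luminal cells (adjusted p = 0.0721, limma), which did not pass. Without the third intact luminal array, the highest of its group, it was 3.94 with an adjusted p of 0.00807. Ifit1, which recognises RNA with an immature cap, read 991, 1362 and 1355 in castrated luminal cells, against 777, 214 and 546 in intact luminal cells. Its log2 fold change was 1.40 ± 0.82 (adjusted p = 0.377, limma) with no overlap of the groups. Ifit2, another member of the cluster, had overlapping luminal groups: 323, 151 and 298 in castrated luminal cells, against 73.1, 231 and 70.9 in intact luminal cells.

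**Figure D2:**
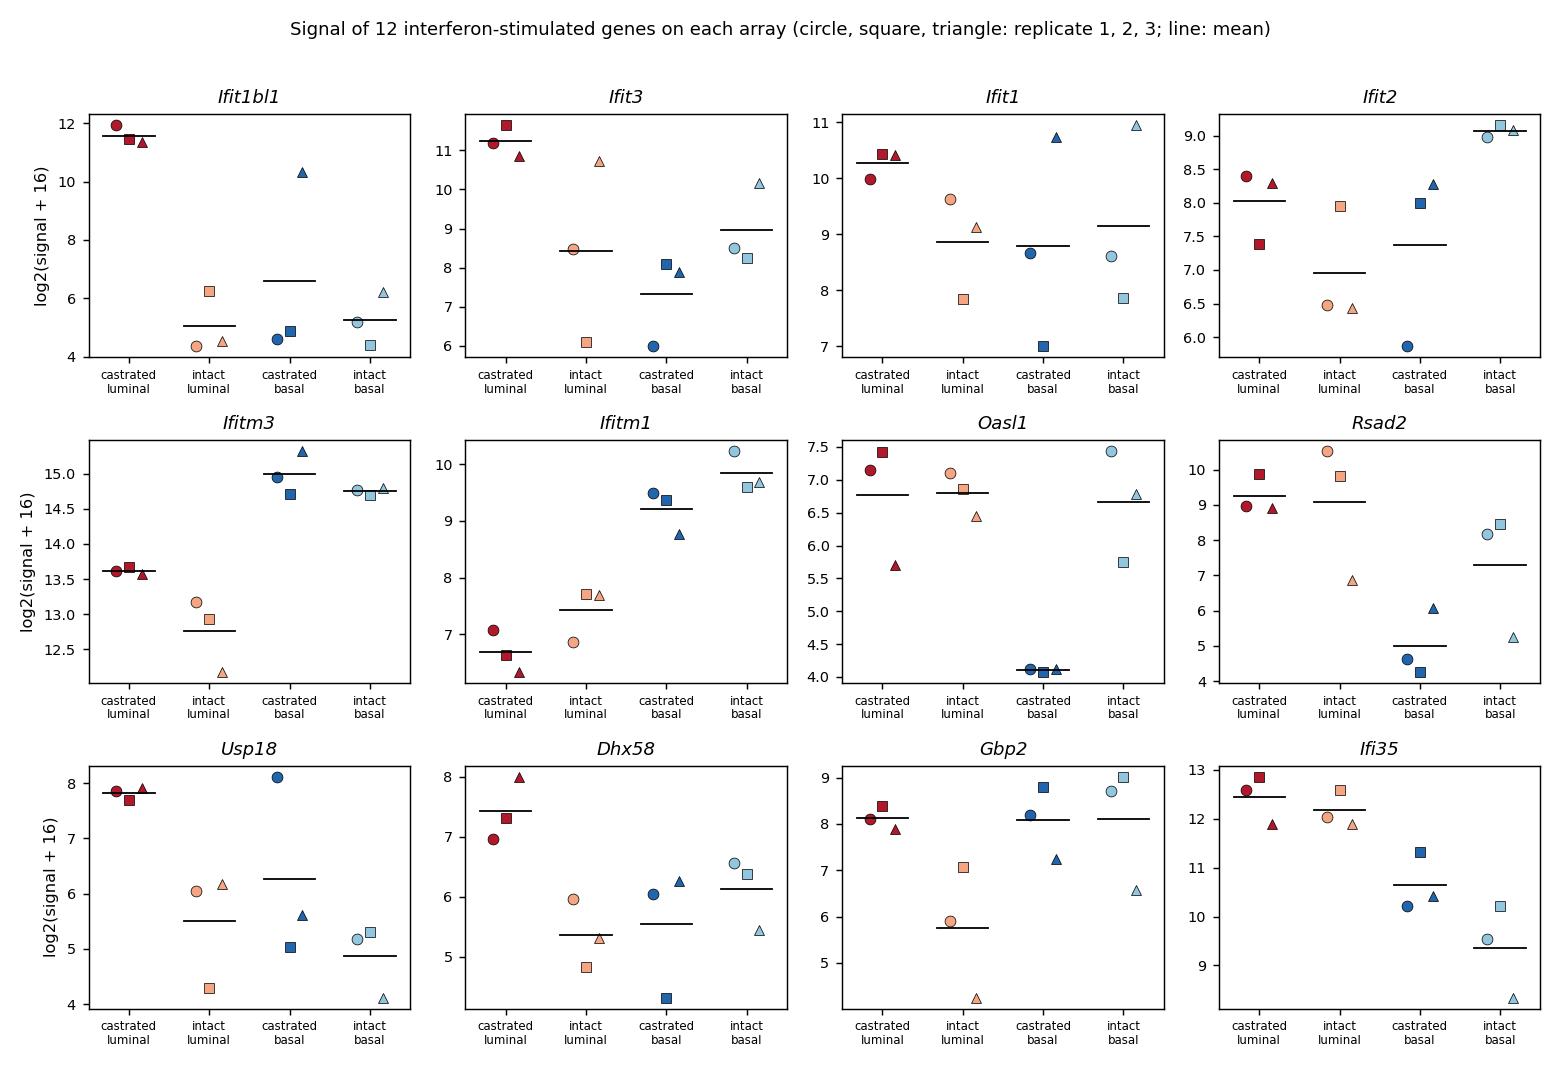
The log2(signal + 16) of 12 members on each array, for castrated luminal, intact luminal, castrated basal and intact basal cells; circles, squares and triangles are replicates 1, 2 and 3 and lines are group means. Castrated luminal arrays stand above all intact luminal ones for Ifit1bl1, Ifit3, Ifit1, Ifitm3, Usp18, Dhx58 and Gbp2.

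Upstream stretches are shown for Ifit1bl1, Ifit3, Ifit1 and Rsad2, each of which holds the motif described below. Their signals set castrated luminal cells apart from intact luminal cells, from castrated basal cells or from both. The stretches are from RefSeq, build GRCm38.p6, on the gene's strand. Capitals mark a motif of GAAA, any pair of bases (NN) and GAAA in a row, which reads TTTC, NN and TTTC on the other strand and forms the core of an interferon-stimulated response element. Ifit1bl1 has a pair of annotated start sites, and both windows hold the same stretch around the match.
Ifit1bl1, start site 1, chr19:34602029-34602108, minus strand: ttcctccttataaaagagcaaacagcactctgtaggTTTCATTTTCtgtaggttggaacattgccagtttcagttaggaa
Ifit1bl1, start site 2, chr19:34599438-34599517, minus strand: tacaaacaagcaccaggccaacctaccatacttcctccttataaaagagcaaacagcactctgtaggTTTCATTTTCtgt
Ifit3, chr19:34583354-34583433, plus strand: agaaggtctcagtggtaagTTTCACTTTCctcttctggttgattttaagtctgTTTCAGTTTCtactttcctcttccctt
Ifit1, chr19:34640764-34640843, plus strand: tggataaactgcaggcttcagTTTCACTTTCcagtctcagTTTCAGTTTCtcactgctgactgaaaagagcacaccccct
Rsad2, chr12:26456523-26456602, minus strand: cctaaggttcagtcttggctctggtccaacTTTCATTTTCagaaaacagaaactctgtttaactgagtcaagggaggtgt
RefSeq windows were at hand for 30 of the 39 named genes. Within the 250 bases before the gene start, 11 of them (36.7%) held at least 1 match, against 936 of 27025 genes with a window (3.46%). Besides Ifit1, Ifit3, Ifit1bl1 and Rsad2 these were Isg15, Oas1a, Oas3, Gbp2, Gbp3, Bst2 and Stat2. Without a match were Xaf1, Oasl2 and Ifih1, whose castrated luminal arrays all exceeded the intact luminal and castrated basal ones, and Ifit2. A match describes these letters and was not tested as a binding site. Matches can overlap, as in Isg15, Oas1a, Bst2 and Gbp3.

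Ifitm3, a membrane protein that keeps viruses from fusing with endosomes, read 12474, 13049.5 and 12184 in castrated luminal cells, against 9262, 7807 and 4611 in intact luminal cells. Its basal signal was 31713, 26773 and 40996 in castrated mice, against 27879.5, 26548 and 28528 in intact mice. The 3 castrated luminal arrays differed little from each other and were above each intact luminal array, and all luminal arrays were below all basal ones. The castration log2 fold change in luminal cells was 0.86 ± 0.21 (adjusted p = 0.0228, limma). It did not pass with any 1 of the 3 castrated luminal arrays left out or without the third intact luminal array, where it was 0.56 with an adjusted p of 0.0729. A fit of the luminal groups alone (adjusted p = 0.0514) and a fit without an intensity trend (0.195) did not call it either.

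Usp18, Dhx58 and Gbp2 had groups apart in luminal cells without passing. Usp18, which removes the modifier Isg15 from proteins and restrains the interferon receptor, read 216, 191 and 224 in castrated luminal cells, against 50.04, 3.71 and 55.8 in intact luminal cells, a log2 fold change of 2.32 ± 0.76 (adjusted p = 0.0891, limma). Dhx58, the helicase LGP2 that tunes RNA sensing, read 109, 142 and 240.4 in castrated luminal cells, against 46.0, 12.5 and 23.9 in intact luminal cells, and differed by 2.06 ± 0.65 (adjusted p = 0.0737, limma). Gbp2, a GTPase that interferon gamma also induces, read 260.5, 318 and 223 in castrated luminal cells, against 44.4, 118 and 3.07 in intact luminal cells, and differed by 2.39 ± 0.76 (adjusted p = 0.0786, limma). With the replicate number as a block its adjusted p was 0.0275. Of these genes and Ifit3, all 4 passed as higher when arrays were centred on their medians or weighted by their quality. Median centring moved the median of all genes in this comparison to 0.29 and the split of all calls to 1021 higher and 252 lower, against 424 higher and 434 lower as reported here. The median of the members was then 0.75.

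**Figure D3:**
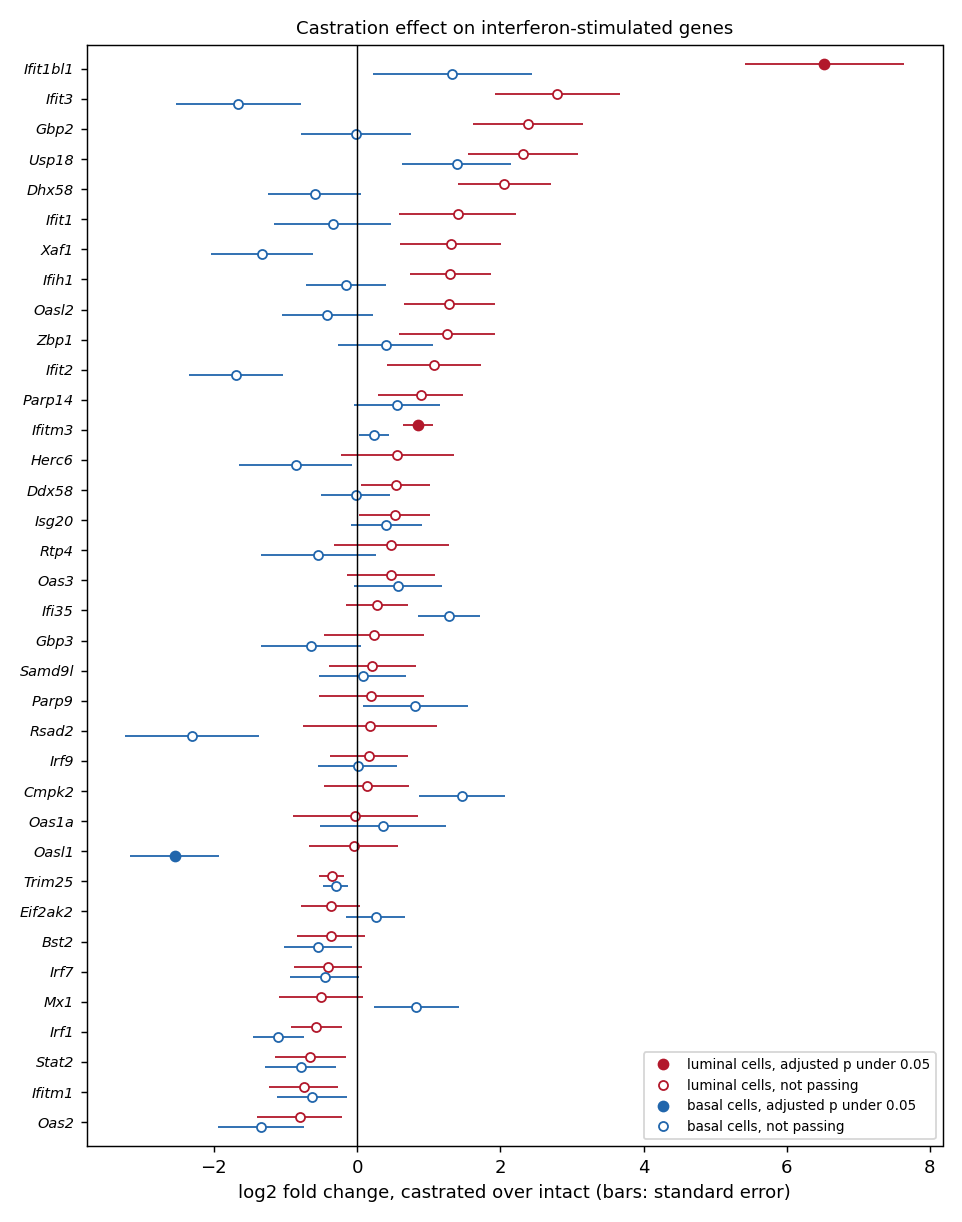
Log2 fold change of castrated over intact mice for the 36 members in luminal cells (red) and basal cells (blue), with bars of 1 SE and filled points where the adjusted p was under 0.05. Ifit1bl1 and Ifitm3 in luminal cells and Oasl1 in basal cells are the filled points.

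In basal cells castration was followed by a fall of Oasl1, a protein that in mice blocks translation of the factor Irf7. It was the only member of 36 that passed (2.78%), where 2.62% of all genes passed, 1.12% as higher and 1.50% as lower, and none passed as higher. Oasl1 read 1.45, 0.864 and 1.41 in castrated basal cells, against 158, 37.6 and 94.0 in intact basal cells. In luminal cells it read 126, 156 and 36.3 after castration, against 122, 99.7 and 71.8 in intact mice. The 3 castrated basal arrays were the lowest of the 12 and near the bottom of the scale. The log2 fold change in basal cells was -2.55 ± 0.62 (adjusted p = 0.0381, limma). It depended on the constant added, -5.23 with 1 and -1.23 with 64. It did not pass under 7 of the 12 fits that leave out 1 array, among them those with any 1 castrated basal array left out, nor under 6 of 12 other settings.

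Other members were low on the castrated basal arrays without passing. At an unadjusted p under 0.05 there were 2 higher and 5 lower members (19.4%, against 17.8% of all genes). Of the 36 log2 fold changes 15 (41.7%) were above 0, near the 44.2% of all genes. Their median was -0.23, against -0.11 over all genes. Median centring turned the median of the members to 0.12 and that of all genes to 0.23, with 511 genes passing as higher and 115 as lower, against 164 higher and 220 lower as reported here. Castrated basal arrays all lay below the intact basal ones for 8 members (22.2%), Ifit2, Ifit3, Irf1, Stat2, Oas2, Oasl1, Bst2 and Ifitm1, where 11.1% of all genes did so. They all lay above for Cmpk2 alone (2.78%, against 8.71% of all genes). Ifit2 read 42.2, 238 and 294 in castrated basal cells, against 489, 553 and 526 in intact basal cells, and the intact basal arrays were the 3 highest of the 12. Its log2 fold change was -1.69 ± 0.66 (adjusted p = 0.186, limma). Irf1, a factor that interferon gamma induces, differed by -1.10 ± 0.35 (adjusted p = 0.109, limma).

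No member passed the test of whether castration acted differently in luminal and basal cells, by limma, where 1.15% of all genes passed, 0.676% as higher and 0.471% as lower. In this test 7 members had an unadjusted p under 0.05 (19.4%, against 12.7% of all genes), and each of the 7 was more positive in luminal cells: Ifit2, Ifit3, Ifit1bl1, Xaf1, Oasl1, Dhx58 and Gbp2. Of the 36 differences 27 (75.0%) were above 0, against 51.2% over all genes, and their median was 0.55, against 0.03 over all genes. Ifit3 had the lowest adjusted p, with a difference of 4.45 ± 1.24 (adjusted p = 0.103, limma). Without the third intact luminal array it was 5.60 with an adjusted p of 0.0153. For Ifit1bl1 the difference was 5.19 ± 1.57 (adjusted p = 0.143, limma), and without the third castrated basal array 7.06 with an adjusted p of 0.00313.

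Luminal cells of castrated mice exceeded basal cells of castrated mice in 12 of 36 members (33.3%), where 11.2% of all genes passed as higher. Ifitm1 and Ifitm3 were lower (5.56%, against 7.22% of all genes). The median log2 fold change of the members was 0.89, against 0.08 over all genes, and 31 of 36 (86.1%) were above 0, against 53.2%. All 3 luminal arrays exceeded all 3 basal ones for 21 members (58.3%), where 23.6% of all genes did so, and lay below them for 2 (5.56%, against 17.5%). In intact mice 7 members were higher in luminal cells (19.4%, against 11.0% of all genes) and 4 lower (11.1%, against 8.45%). The median there was 0.36, against 0.07 over all genes, with 22 of 36 (61.1%) above 0, against 52.9%. Luminal arrays of intact mice all lay above the basal ones for 8 members (22.2%, against 18.0% of all genes) and below for 3 (8.33%, against 14.0%). Ddx58, Ifi35, Parp9 and Trim25 were higher in luminal cells in both states, 33.3% of the castrated and 57.1% of the intact list. Over all genes the shared ones were 48.4% of the castrated and 49.3% of the intact list. Ifitm1 and Ifitm3 were lower in both. These 2 comparisons share no arrays. Their difference is the same quantity as the difference of the castration effects above, which no member passed, so a call in 1 state alone does not show that the states differ.

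**Figure D4:**
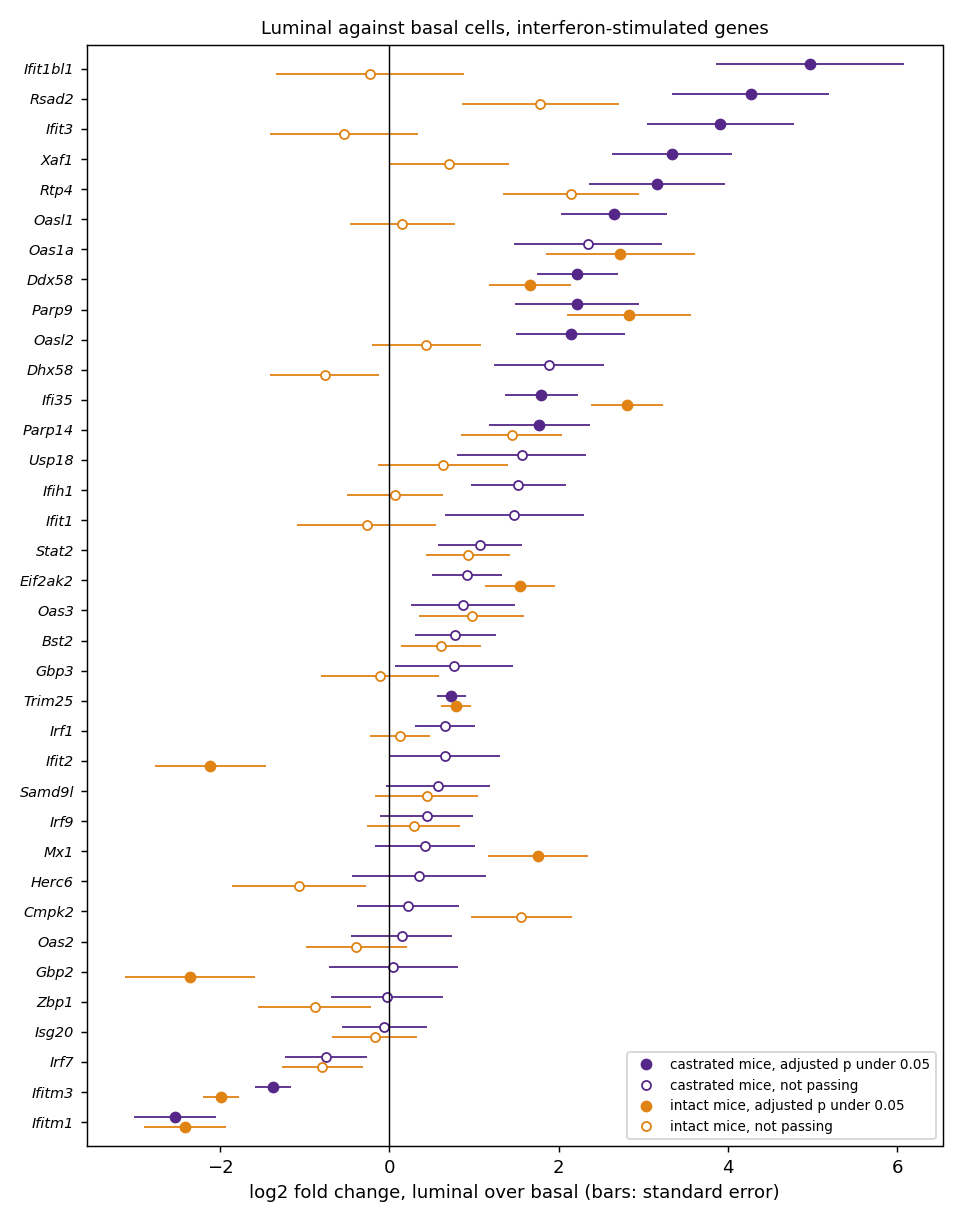
Log2 fold change of luminal over basal cells for the 36 members in castrated mice (purple) and intact mice (orange), with bars of 1 SE and filled points where the adjusted p was under 0.05. In castrated mice 12 members pass to the right of 0 and 2 to the left, and in intact mice 7 to the right and 4 to the left.

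Among the IFIT genes, Ifit1bl1 and Ifit3 were higher in luminal than in basal cells of castrated mice, by 4.97 ± 1.11 (adjusted p = 0.00430, limma) and 3.91 ± 0.87 (adjusted p = 0.00431, limma). In intact mice the same values were -0.23 ± 1.11 and -0.54 ± 0.87, and neither passed. Ifit2 was lower in luminal than in basal cells of intact mice, with a log2 fold change of -2.11 ± 0.66 (adjusted p = 0.0311, limma), and did not pass with any 1 intact basal array left out or without the first or the third intact luminal array. In castrated mice its value was 0.65 ± 0.66 (adjusted p = 0.547, limma).

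The membrane proteins divided. Ifitm1, which sits at the cell surface and hinders virus entry, read 119, 83.2 and 64.6 in castrated luminal cells, against 707, 648 and 419.9 in castrated basal cells. In intact mice it read 101, 194 and 191 in luminal cells, against 1187, 761 and 811 in basal cells. All luminal arrays were below all basal arrays in both states. The log2 fold change was -2.53 ± 0.48 in castrated mice (adjusted p = 0.00126, limma) and -2.42 ± 0.48 in intact mice (adjusted p = 0.00187, limma). For Ifitm3 it was -1.38 ± 0.21 in castrated mice (adjusted p = 0.000200, limma) and -1.99 ± 0.21 in intact mice (adjusted p = 4.91e-06, limma). Bst2, or tetherin, which holds budding viruses at the membrane, read 331, 255 and 327 in castrated luminal cells, against 156, 152 and 204 in castrated basal cells. It passed no test, with an adjusted p of 0.287 in this comparison (limma).

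Rsad2 and its genomic neighbour Cmpk2 were members of the nucleotide and RNA enzymes. Rsad2, or viperin, makes a nucleotide that ends viral RNA chains, and it read 485, 933 and 466 in castrated luminal cells, against 8.80, 3.16 and 51.4 in castrated basal cells. Among intact mice the signal was 1463, 891 and 101 in luminal cells, against 273, 335 and 22.0 in basal cells. The castrated basal arrays were all low, and the third array of each intact group lay well below the other two. Rsad2 was higher in luminal cells of castrated mice by 4.27 ± 0.93 (adjusted p = 0.00356, limma), and by 1.78 ± 0.93 in intact mice, where it did not pass (adjusted p = 0.204, limma). The intact value passed without the third intact luminal array (2.89, adjusted p = 0.0299) and with its probe sets averaged (1.81, adjusted p = 0.0300), and averaging gave 2.78 in castrated mice, which also passed. Cmpk2, a mitochondrial nucleotide kinase, did not pass in either state, with 0.22 ± 0.60 in castrated and 1.56 ± 0.60 in intact mice. Isg20, an RNA exonuclease, and Samd9l passed no test, with log2 fold changes between -0.17 and 0.57 over the luminal and basal comparisons and both castration comparisons.

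Of the oligoadenylate synthetases and their relatives, which include enzymes that make the short oligomers activating RNase L, Oasl1 and Oasl2 were higher in luminal cells of castrated mice. Oasl1 differed there by 2.66 ± 0.62 (adjusted p = 0.00603, limma), which passed in every alternative in which it was tested. Oasl2 read 969, 1358 and 1635 in castrated luminal cells, against 108, 245 and 788 in castrated basal cells, and 716, 646 and 299.8 in intact luminal cells, against 769.6, 405 and 171 in intact basal cells. The castrated luminal arrays were the 3 highest, and the value was 2.14 ± 0.64 (adjusted p = 0.0268, limma), which did not pass with any 1 castrated luminal array left out or without the first or the second castrated basal array. Oas1a read 724, 656 and 179.7 in intact luminal cells, against 21.2, 222 and 21.6 in intact basal cells, and 433, 466 and 413 in castrated luminal cells, against 215, 129.9 and 5.002 in castrated basal cells. The second intact basal array and the third castrated basal array each stood apart from the others of their group. Oas1a was higher in luminal cells of intact mice by 2.73 ± 0.88 (adjusted p = 0.0370, limma), a call lost under 7 of the 12 fits without 1 array. In castrated mice it was 2.35 ± 0.88 (adjusted p = 0.0740, limma, and 0.0384 with the replicate number as a block). Oas2 and Oas3 passed no test, with log2 fold changes of 0.15 ± 0.60 and 0.87 ± 0.61 in castrated mice.

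Among the sensors, Ddx58, the helicase RIG-I that recognises viral RNA ends, was higher in luminal cells in both states. It read 646, 758 and 1093 in castrated luminal cells, against 151, 167 and 168 in castrated basal cells. In intact mice it read 521, 377 and 865 in luminal cells, against 247, 150.0 and 118 in basal cells. No luminal array overlapped the basal arrays of its state. The difference was 2.22 ± 0.48 in castrated mice (adjusted p = 0.00339, limma) and 1.66 ± 0.48 in intact mice (adjusted p = 0.0213, limma), but neither passed when all probe sets of the gene were averaged, and the intact value did not pass without the first or the third intact luminal array or the second or the third intact basal array. Eif2ak2, the kinase PKR that stops translation on double-stranded RNA, read 2912, 2223 and 3258 in intact luminal cells, against 789, 1907 and 548 in intact basal cells. In castrated mice it read 2366, 1909 and 2162 in luminal cells, against 1818, 921 and 854 in basal cells. The luminal arrays were higher in both states, with 1.54 ± 0.41 in intact mice (adjusted p = 0.0137, limma; not passing without the third intact basal array or with its probe sets averaged) and 0.91 ± 0.41 in castrated mice (adjusted p = 0.141, limma). With its probe sets averaged, Eif2ak2 passed in castrated mice, at 1.55 with an adjusted p of 0.0137. Ifih1, the RNA helicase MDA5, read 874, 963 and 1051 in castrated luminal cells, against 451, 426 and 174 in castrated basal cells, and its difference of 1.52 ± 0.56 did not pass (adjusted p = 0.0708, limma). Dhx58 was at 1.88 ± 0.65 (adjusted p = 0.0518, limma) with no overlap, and passed at 2.41 with its probe sets averaged (adjusted p = 0.00506). Zbp1, which detects nucleic acids in the Z form and can trigger cell death, was at -0.03 ± 0.66 in castrated and -0.88 ± 0.66 in intact mice and passed no test.

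Trim25, a ubiquitin ligase that modifies RIG-I, differed little in size but with narrow spread on the probe set used. It read 10635, 12700.4 and 10004 in castrated luminal cells, against 7092, 6095 and 6775 in castrated basal cells. Its intact counterparts read 15850.5, 12864 and 13795 in luminal cells, against 8705, 6940.2 and 9036 in basal cells. The groups did not overlap in either state. Trim25 was higher in luminal cells by 0.73 ± 0.18 in castrated (adjusted p = 0.00688, limma) and 0.79 ± 0.18 in intact mice (adjusted p = 0.00411, limma), and passed in neither state without an intensity trend (0.105 and 0.0808). The other probe sets of Trim25 alone gave 1.24 and 1.19 in castrated mice, and 0.38 and 2.18 in intact mice. On the one that gave 0.38, intact basal cells read 1480, 967 and 8572. Herc6, the ligase that attaches Isg15 in mice, and Usp18 passed no luminal against basal test, with 0.35 ± 0.79 and 1.56 ± 0.76 in castrated mice. Without the first castrated basal array Usp18 passed there, at 2.49 with an adjusted p of 0.0239. The other probe sets of Herc6 alone had log2 fold changes of 1.125, 2.025 and 1.535 in castrated mice. In intact mice they gave 0.394, 0.916 and -0.69, against -1.07 for the one used.

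The ADP-ribosyltransferase family members Parp9 and Parp14 were higher in luminal cells of castrated mice, and Parp9 also in intact mice. Parp9 read 1805, 1718 and 1438 in castrated luminal cells, against 99.3, 1055 and 354 in castrated basal cells. In intact mice it read 1093, 846 and 3175 in luminal cells, against 396, 58.3 and 259.7 in basal cells. The luminal arrays lay above the basal ones in each state, by 2.22 ± 0.73 in castrated mice (adjusted p = 0.0435, limma; 0.0538 with the replicate number as a block) and 2.83 ± 0.73 in intact mice (adjusted p = 0.0112, limma). The castrated value did not pass under 6 of the 12 fits without 1 array, those leaving out any 1 castrated luminal array, the first intact luminal array or the first or the third castrated basal array. The intact value did not pass without the third intact luminal or the second intact basal array. Parp14 read 1166, 1269 and 1486 in castrated luminal cells, against 1007, 320.0 and 151 in castrated basal cells. The intact arrays read 1143, 347 and 842 in luminal cells, against 398, 190.1 and 194 in basal cells. The castrated groups were apart by 1.77 ± 0.60 (adjusted p = 0.0478, limma), a call lost under 7 of the 12 fits without 1 array, and the intact value was 1.44 ± 0.60 (adjusted p = 0.104, limma).

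Of the GTPases, Mx1, whose product blocks orthomyxoviruses but is not functional in C57BL/6 mice, read 52.3, 96.3 and 114 in intact luminal cells, against 5.11, 24.9 and 14.3 in intact basal cells. In castrated mice it read 37.7, 77.8 and 54.0 in luminal cells, against 11.3, 56.3 and 58.2 in basal cells. It was higher in luminal cells of intact mice by 1.75 ± 0.59 (adjusted p = 0.0458, limma), a call lost under 8 of the 12 fits without 1 array, and was at 0.42 ± 0.59 in castrated mice. Mx2, a relative of Mx1 that did not pass the filter, read 19.4, 41.5 and 9.70 in castrated luminal, 44.7, 1.54 and 22.9 in intact luminal, 46.5, 3.04 and 17.4 in castrated basal and 20.3, 6.27 and 2.75 in intact basal cells. It was not tested. Gbp2 read 44.4, 118 and 3.07 in intact luminal cells, against 402, 504 and 78.8 in intact basal cells, and 279, 429.9 and 135 in castrated basal cells. It was lower in luminal cells of intact mice, with a log2 fold change of -2.35 ± 0.76 (adjusted p = 0.0385, limma), with overlapping groups, and the call was lost under 7 of the 12 fits without 1 array. In castrated mice its value was 0.05 ± 0.76. Gbp3, a GTPase of the same family, was at 0.76 ± 0.70 in castrated and -0.11 ± 0.70 in intact mice and passed no test.

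Ifi35, which binds the factor Nmi, Xaf1, which opposes the apoptosis inhibitor XIAP, and Rtp4, a chaperone of membrane receptors, were all higher in luminal cells of castrated mice. Ifi35 read 6151, 7431 and 3791 in castrated luminal cells, against 1166, 2544 and 1361 in castrated basal cells, and 4175, 6139 and 3783 in intact luminal cells, against 729, 1173 and 308 in intact basal cells. The groups did not overlap in either state, and the values were 1.80 ± 0.43 (adjusted p = 0.00684, limma) in castrated and 2.80 ± 0.43 (adjusted p = 0.000184, limma) in intact mice. With its 3 probe sets averaged both still passed, at 1.13 in castrated and 1.07 in intact mice. The other probe sets alone had log2 fold changes of 0.67 and -0.25 in intact mice. The castration effect of Ifi35 in basal cells was 1.29 ± 0.43 (adjusted p = 0.120, limma), and 0.0461 with the replicate number as a block. For this effect the other probe sets alone gave -0.08 and -0.13. Xaf1 read 855, 645 and 1072 in castrated luminal cells, against 57.5, 193 and 23.4 in castrated basal cells. In intact mice it read 431, 254 and 327 in luminal cells, against 435, 300.4 and 50.6 in basal cells. The castrated luminal arrays were the 3 highest of the 12, and the difference was 3.34 ± 0.71 (adjusted p = 0.00297, limma) in castrated and 0.71 ± 0.71 (adjusted p = 0.547, limma) in intact mice. Rtp4 read 449.7, 639 and 639 in castrated luminal cells, against 6.26, 245 and 32.2 in castrated basal cells. In the intact state it read 588, 542 and 205 in luminal cells, against 35.1, 215 and 57.1 in basal cells. The value in castrated mice was 3.16 ± 0.80 (adjusted p = 0.0103, limma), not passing without the first castrated basal array or with its probe sets averaged, and in intact mice 2.14 ± 0.80 (adjusted p = 0.0721, limma; 0.0412 with the replicate number as a block).

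None of the 4 transcription factors among the members passed a test in any comparison by limma. Stat2, which interferon receptors activate, read 249.98, 277 and 345 in castrated luminal cells, against 537, 371 and 495 in intact luminal cells, and 72.2, 207 and 139 in castrated basal cells, against 208, 224 and 275 in intact basal cells. Castrated arrays lay below intact ones in both cell types, with log2 fold changes of -0.65 ± 0.50 (adjusted p = 0.521, limma) in luminal and -0.79 ± 0.50 (adjusted p = 0.437, limma) in basal cells. Irf9, which gives the complex with Stat2 its binding to the response element, was at 0.17 ± 0.55 in luminal and 0.01 ± 0.55 in basal cells. Irf7, a factor that drives the genes of type I interferons, was at -0.40 ± 0.48 in luminal and -0.45 ± 0.48 in basal cells. Irf1 was at -0.57 ± 0.35 in luminal cells (adjusted p = 0.412, limma).

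Of 98 other genes of the interferon pathway, 82 had a probe set of a single symbol and 73 were tested. After castration, 3 of the 73 rose in luminal cells, Tnfsf10, Slfn2 and Ccl5 (4.11%, against 2.90% of all genes), and 2 fell, B2m and Socs3 (2.74%, against 2.96%). Tnfsf10, the death ligand TRAIL, read 346, 642 and 508 in castrated luminal cells, against 45.0, 80.3 and 9.12 in intact luminal cells, a log2 fold change of 3.24 ± 0.60 (adjusted p = 0.00331, limma). For Slfn2, a regulator of T cell quiescence in mice, the log2 fold change was 2.76 ± 0.63 (adjusted p = 0.0129, limma). The chemokine Ccl5 was at 3.00 ± 0.71 (adjusted p = 0.0171, limma). B2m, the light chain of MHC class I, changed by -1.13 ± 0.13 (adjusted p = 5.23e-05, limma). Socs3, a feedback inhibitor of cytokine receptors, changed by -1.46 ± 0.37 (adjusted p = 0.0242, limma). In basal cells Socs3 and Stat3 rose, by 1.54 ± 0.37 and 0.97 ± 0.19 (adjusted p = 0.0352 and 0.0129, limma). Tlr3, an endosomal sensor of double-stranded RNA, and Irf3, a factor that RNA sensing activates, fell there (2.74% in each direction, against 1.12% of all genes as higher and 1.50% as lower), with -2.15 ± 0.48 and -1.45 ± 0.36 (adjusted p = 0.0283 and 0.0407, limma). The castration effect was more positive in luminal than in basal cells for Tnfsf10 (4.13 ± 0.85, adjusted p = 0.0242) and more negative for Socs3 (-2.99 ± 0.52, adjusted p = 0.00758) and B2m (-0.79 ± 0.18, adjusted p = 0.0446), all by limma. Ccl5 and Irf3 were named after their values were seen.

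Luminal cells of castrated mice exceeded basal cells in 19 of these 73 genes (26%, against 11.2% of all genes) and were lower in 4 (5.48%, against 7.22%). In intact mice 9 were higher (12.3%, against 11.0%) and 5 lower (6.85%, against 8.45%). Receptor subunit Ifngr2 was higher by 3.79 ± 0.45 in castrated and 2.40 ± 0.45 in intact mice (adjusted p = 1.59e-05 and 0.00116, limma). The type I receptor genes Ifnar1 and Ifnar2 passed no test, with 0.27 ± 0.55 and -0.05 ± 0.36 in castrated mice. Ifnlr1 and Tyk2 were higher in luminal cells of castrated mice, by 2.15 ± 0.59 and 2.95 ± 0.74 (adjusted p = 0.0158 and 0.00931, limma). Jak1 was lower in luminal cells of intact mice, by -1.24 ± 0.28 (adjusted p = 0.00458, limma). The secreted glycoprotein Lgals3bp was higher in luminal cells of castrated mice by 5.47 ± 0.80 (adjusted p = 0.000118, limma), and the immunoproteasome subunit Psmb9 by 4.08 ± 0.77 (adjusted p = 0.00117, limma). Sp100, a nuclear body protein, was higher by 3.01 ± 0.62 and 2.73 ± 0.62 in castrated and intact mice (adjusted p = 0.00222 and 0.00456, limma), and the lectin Lgals9 by 3.32 ± 0.73 and 3.54 ± 0.73 (adjusted p = 0.00365 and 0.00224, limma). The chemokine Cxcl10 was lower in luminal cells, with log2 fold changes of -1.63 ± 0.24 in castrated and -3.00 ± 0.24 in intact mice (adjusted p = 0.000137 and 2.45e-07, limma). Of 18 interferon genes listed as ligands, 10 had a probe set, 3 were tested and none passed in any comparison by limma.

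Markers of other cells also moved between the groups. The summed signal of 15 leukocyte genes was 1678 to 5001 in castrated luminal cells, against 10508 to 12544 in intact luminal cells, and 2559 to 4919 in castrated basal cells, against 903 to 1861 in intact basal cells. Cd52, which made up most of the sum in intact luminal cells, read 447, 484 and 28.5 in castrated luminal cells, against 9749, 9602 and 11519 in intact luminal cells. The sum of the other 14 genes, taken after this was seen, ran the opposite way in luminal cells. It was 1649 to 4517 in castrated luminal cells, against 905 to 1024 in intact luminal cells. In basal cells it was 2485 to 4691 after castration, against 784 to 1635 in intact mice. Such a sum follows its brightest genes. Over the 12 tested leukocyte genes the median log2 fold change for castration was -0.66 in luminal and 0.38 in basal cells. In luminal cells 0 of them passed as higher. The defining leukocyte gene Ptprc, or CD45, was dim in all groups, at 9.22 to 19.6 in castrated luminal, 32.9 to 57.1 in intact luminal, 0.594 to 89.1 in castrated basal and 21.7 to 52.3 in intact basal cells. Fibroblast genes, 5 in number and led by Dcn, summed to 342 to 602 in castrated luminal cells, against 4271 to 4995 in intact luminal cells, and to 19768 to 25796 in castrated basal cells, against 22800.2 to 26876 in intact basal cells. Endothelial genes, also 5, summed to 37.2 to 134 in castrated luminal cells, against 211 to 888 in intact luminal cells, and to 264 to 298 in castrated basal cells, against 418 to 945 in intact basal cells. No marker was listed at 0. By limma 1 of 12 tested leukocyte genes and 3 of 5 fibroblast genes were lower after castration in luminal cells, and 1 leukocyte gene was higher in basal cells. In basal cells 2 of 5 fibroblast genes were lower after castration, with a list median of -2.01, and 2 of 5 luminal markers were lower after castration in luminal cells, as were 2 in basal cells. The part of these cells in the differences of the interferon-stimulated genes was not tested.

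Second probe sets of the same genes gave the direction of each difference again in part. Of the 37 measured members 14 had several probe sets. In the luminal against basal comparison of castrated mice, 19 of 19 further probe sets past the filter had the sign of the one used, 10 of 10 among members that passed. In intact mice 14 of 19 did, 8 of 9 among members that passed, and the exception was a probe set of Ifi35. For castration the counts were 12 of 19 in luminal and 9 of 19 in basal cells, and the 3 genes that passed there were not among those with further probe sets. A near copy of Ifit1bl1, Ifit1bl2, could share its signal. Its brighter probe set, looked up after the values of Ifit1bl1 were seen, read 71.6, 84.0 and 74.0 in castrated luminal cells, against 17.8, 62.5 and 25.3 in intact luminal cells, and no more than 18.6 in basal cells.

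Single arrays stood apart from their group in 11 of the values by gene and group, taken as over 2 log2 units from both other replicates when those lay within 1 of each other. The third intact basal array did so for 4 members (11.1%, against 3.65% of all genes): Gbp2, Rsad2 and Xaf1 were low and Ifit1 was high. On the third intact luminal array Isg20 and Rsad2 were low (5.56%, against 4.96% of all genes). The third castrated basal array was high for Ifit1bl1 and low for Oas1a (5.56%, against 3.95%), and the first was high for Usp18 and low for Ifit2 (5.56%, against 1.78%). The second intact basal array was high for Oas1a (2.78%, against 2.00%). No castrated luminal array stood apart for any member, and those arrays did so for 0.157% to 0.328% of all genes.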

How the data were processed

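The deposited signal intensity of 12 Affymetrix arrays came from MAS5, whose version the sources used here do not give (the authors' step, per the submitters' processing notes). Sorted-cell RNA had been amplified and biotin-labelled, per the labels' protocols. After removal of 64 controls from 45101 probe sets, array medians ran from 57.7 to 99.9, at a trimmed mean of 499.8 on each array. The 3' over 5' ratio was 4.18 to 8.70 in Gapdh and 0.781 to 1.11 in Actb controls. In the supplied annotation 34945 probe sets had 1 symbol, 932 had several and 9160 had none here; the gene table held the Entrez identifiers of 34741, and no symbol differed.

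The log2 of signal plus 16 was analysed. A probe set was kept when it passed its array's 40th percentile on 3 or more arrays, with the brightest per gene used. One limma model (version 3.58.1, R 4.3.3) held the 4 groups (moderated variances, a trend with intensity, 8 residual degrees of freedom) with Benjamini-Hochberg adjustment at 0.05 over 14645 genes; the code was tested on simulated data. Python 3.11.15 with matplotlib 3.10.9, numpy 2.4.6 and pandas 2.3.3 made tables and plots. Replicate numbers pair castrated and intact animals per the series' design text, but deviations of same-numbered arrays from their group means correlated at only -0.00723 to 0.0258 over genes.

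The members, the other lists and the tests were chosen with earlier results of these data known. Arrays are shown for members passing in any comparison and for those of highest and lowest signal, with a few others where the groups do not overlap. Of the other pathway genes at most 12 were named by lowest adjusted p, besides Ifnar1 and Ifnar2, and of each marker list up to 4 by highest signal, besides defining markers. Ifnlr1, Tyk2 and Jak1 were added after their values were seen. Each result was recomputed with other scalings (quantiles, medians), constants, filters and variance models, with probe sets averaged per gene, with blocks, in separate fits and without each array.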

Additional observations from a re-analysis of the deposited data

Results flagged for a closer look

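Ifit3 stood out because its castration effect ran opposite ways in the 2 cell types: every castrated luminal array was above every intact luminal array, and every castrated basal array was below every intact basal array. The test of that difference gave 4.45 on the log2 scale (luminal minus basal; adjusted p = 0.103, limma), which did not pass. Nor did the castration effect pass in luminal or in basal cells alone (adjusted p = 0.0721 and 0.338, limma). Of all genes, 14.9% were higher on every castrated luminal array and 11.1% were lower on every castrated basal array. The share with both was not computed.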

How the results depend on the processing

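Across 25 alternatives, 28 member values that passed lost 110 calls in all, 59 calls were gained and 0 calls reversed; 12 of the 28 passed in every alternative in which they were tested. The cause of the changes was not tested. For castration in luminal cells, 555 genes passed without an intensity trend and 1945 with array weights (858 as reported); members passing as higher numbered 6 with median centring, 1 without a trend and 6 with array weights. For castration in basal cells, 626 genes passed with median centring, 155 without a trend, 202 with array weights and 120 in 2-group fits (384 as reported). There, 1 member passed as higher with median centring and 1 with the replicate block, and 0 as lower (1 as reported) with quantile normalization, median centring, 64 added, a stricter filter (which drops Oasl1 from the test), array weights, 2-group fits or both arrays of lowest weight left out, an alternative chosen after seeing the data. Those arrays were the third intact luminal (weight 0.363) and the third castrated basal array (0.434), against weights of 1.81 to 3.19 for the castrated luminal arrays. For the difference of the castration effects, 27 genes passed without a trend (168 as reported), and 2 members as higher with array weights and 2 with both arrays left out. For luminal against basal cells of intact mice, 4 members passed as higher in 2-group fits and 2 as lower with both arrays left out. The replicate block changed no member's call other than those of Gbp2, Ifi35, Oas1a, Parp9 and Rtp4 given beside their results.

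Without 1 array at a time, castration in luminal cells gave 401 to 984 genes and 1 to 3 members higher, and in basal cells 175 to 623 genes, with 0 to 1 members lower. The difference gave 65 to 163 genes and 0 to 1 members higher: Ifit3 without the third intact luminal array, Ifit1bl1 without the third castrated basal array. Luminal against basal cells gave 1720.0 to 3109 genes, 9 to 13 members higher and 2 lower in castrated mice. In intact mice they gave 2160.0 to 3138 genes, 3 to 8 members higher, the fewest without the third intact basal array, and 2 to 4 lower. All 4 groups share an estimate of the spread. Leaving out an array outside a comparison therefore changes its adjusted p but not its log2 fold change. The calls of Oas1a, Mx1 and Gbp2 in intact mice were lost in this way without any 1 castrated luminal array. Members that did not pass in luminal against basal cells of castrated mice and did so without 1 array were Ifit1 (2.44 without the third castrated basal array, adjusted p = 0.0429 by limma), Oas1a (3.03 without the first castrated basal array, 0.0379, and also without the second intact basal array), Ifih1 (1.52 without the third intact luminal array, 0.0481) and Dhx58 (2.25 without the third castrated basal array, 0.0413, and also without the third intact basal array). In intact mice Rtp4 did so without the first or the second castrated basal array or the second intact basal array (2.78 and 0.0339 without the last). For castration in luminal cells, Gbp2 passed without the second intact luminal array (3.05, 0.0388) or the third intact basal array, and Usp18 without the first castrated basal array (2.32, 0.0412). With 3 arrays a group, dim members such as Mx2, and Oasl1 in castrated basal cells, have signals near the bottom of the scale, where the fold depends on the constant added.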
